A study of Mus musculus with 28 samples.

Results

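The 8 haem synthesis enzymes Alas1, Alas2, Alad, Uros, Urod, Cpox, Ppox and Fech were read on Affymetrix expression arrays of mouse bone marrow cells. Every probe set whose platform annotation named 1 gene, and that gene an enzyme of the pathway, was taken, which gave 14 probe sets of 22690 on the array (20380 of them name 1 gene) and 8 of 12393 genes. Alas1, Cpox and Ppox have 2 probe sets each, Fech has 4 and the other enzymes have 1. No probe set of an enzyme also named another gene. Not every step of the pathway was analysed here.

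The sorted experiment held 22 arrays. Leukaemic L-GMP (6 arrays) were sorted as Lin-, sca-, kit+, FCR+ and CD34+ cells. Normal marrow gave 4 groups: megakaryocyte-erythroid progenitors (MEP, 3 arrays; Lin-, sca-, kit+, FCR- and CD34-), granulocyte-macrophage progenitors (GMP, 4 arrays; Lin-, sca-, kit+, FCR+ and CD34high), common myeloid progenitors (CMP, 4 arrays; Lin-, sca-, kit+, FCR+ and CD34low) and a stem cell enriched sort (HSC, 5 arrays; Lin-, sca+ and kit+). The transduced experiment held GMP that expressed the leukaemic fusion gene MLL-AF9 (3 arrays) or the green fluorescent protein GFP (3 arrays). The labels name no strain, age, vector or promoter. Nor do they tie replicates to different animals, and the tests can therefore speak only of variation among these samples, some or all of it possibly technical. RNA of the 2 experiments was amplified on different days and the design text calls them noncomparable, so no level was set across them.

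Haem is built in a fixed order of steps that starts and ends in the mitochondrion and passes through the cytosol in between. ALAS joins glycine and succinyl-CoA in the first and rate-limiting step, as the housekeeping enzyme ALAS1 in most cells and as ALAS2 in erythroid cells. ALAD, UROS and UROD act in the cytosol, where the tetrapyrrole ring is made and trimmed, and CPOX, PPOX and FECH finish it in the mitochondrion, where FECH inserts the iron. Erythroid precursors use most haem for haemoglobin, and granulocyte precursors use it for myeloperoxidase and for the cytochrome of the phagocyte oxidase.

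The promoters of 4 enzymes are given first: Alas1 and Alas2 as the alternative forms of the first step, and Alad and Cpox as the enzymes that, after Alas1, stood furthest apart between L-GMP and MEP. Each is the 250 bases before the first RefSeq start of the gene in build GRCm38.p6, read 5′ to 3′ on the strand of the gene. The Alas1 window is chr9:106247955-106248204 (minus strand), that of Alas2 is chrX:150547167-150547416 (plus strand), that of Alad is chr4:62520064-62520313 (minus strand) and that of Cpox is chr16:58669958-58670207 (plus strand). Capitals mark matches, on either strand, to the GATA motif (GATA with A or T before it and A or G after it), the CACCC box (CCNCNCCC) or the NRF1 motif (GCGC, then any base, then TGCGC), and matches can overlap.
Alas1: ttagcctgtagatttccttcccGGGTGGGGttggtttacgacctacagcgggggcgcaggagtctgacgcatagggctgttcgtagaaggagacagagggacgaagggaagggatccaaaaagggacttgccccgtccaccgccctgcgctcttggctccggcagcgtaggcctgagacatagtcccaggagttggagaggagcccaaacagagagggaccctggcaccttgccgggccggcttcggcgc
Alas2: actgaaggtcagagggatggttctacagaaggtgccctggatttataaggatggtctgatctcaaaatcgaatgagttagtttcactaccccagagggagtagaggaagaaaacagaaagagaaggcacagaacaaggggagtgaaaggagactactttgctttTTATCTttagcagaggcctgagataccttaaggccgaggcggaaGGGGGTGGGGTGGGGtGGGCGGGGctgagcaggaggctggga
Alad: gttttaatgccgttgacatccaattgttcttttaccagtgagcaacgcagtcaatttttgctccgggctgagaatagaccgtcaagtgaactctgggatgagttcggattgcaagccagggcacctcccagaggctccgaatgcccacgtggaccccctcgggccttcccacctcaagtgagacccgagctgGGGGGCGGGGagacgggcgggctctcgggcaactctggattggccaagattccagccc
Cpox: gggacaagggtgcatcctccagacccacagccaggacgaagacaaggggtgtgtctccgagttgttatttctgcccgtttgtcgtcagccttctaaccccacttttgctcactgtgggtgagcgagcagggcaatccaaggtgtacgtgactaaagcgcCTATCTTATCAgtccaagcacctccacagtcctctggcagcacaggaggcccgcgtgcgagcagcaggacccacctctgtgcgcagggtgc
Cpox held 2 overlapping GATA matches, which start 91 and 86 bases before the gene's start. Alas2 held 1 GATA match at 86 bases and 4 CACCC matches, some of them overlapping. Alad held 2 overlapping CACCC matches and Alas1 held 1 CACCC match. The window before a further Alas1 start, not printed, held 2 NRF1 and 2 CACCC matches. That before a further Alad start, also not printed, overlaps the printed Alad window, shares its matches and held 4 CACCC matches. The first window of Uros held 1 NRF1 match. Uros also had 1 CACCC match there, and 2 GATA matches in a further window. Of the 32851 mouse promoter windows of this length, 26.5% held a GATA match, 45.9% a CACCC match and 3.74% an NRF1 match. None of the motifs was found in the windows of Urod and Ppox. These are matches of letters and show no binding.

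Levels are scaled intensities, on which the experiment median was 107 and the floor, the 25th percentile, 38.6 in the sorted experiment, against a median of 258 and a floor of 78.0 in the transduced experiment. A probe set was tested when it exceeded the median on at least 3 arrays. In the sorted experiment 11 of the 14 probe sets passed, at least 1 for each enzyme. The other 3, a probe set of Ppox (1448065_at) and Fech probe sets 1418698_a_at and 1427696_at, lay below the median on all 22 arrays. Cpox probe set 1422493_at passed through the 3 MEP arrays alone, so its difference from MEP was bound up with its selection. Levels of different probe sets have no common scale and were not compared.

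Marker genes were read in the sorted groups, and 1 group went against its sort label. A list of 8 erythroid genes averaged between 6.38 and 6.56 (log2 level) on the L-GMP arrays, between 9.94 and 10.3 on the MEP arrays, between 6.32 and 6.62 on the GMP arrays, between 7.0 and 8.41 on the CMP arrays and between 6.52 and 6.68 on the HSC arrays. A list of 7 megakaryocyte genes did not set MEP apart from CMP, with between 7.69 and 7.79 in MEP and between 7.21 and 8.41 in CMP. It averaged between 6.15 and 6.36 in L-GMP, between 6.29 and 6.65 in GMP and between 6.87 and 6.93 in HSC. Klf1 and Rhag, which mark committed erythroid cells, were at the floor on every L-GMP, GMP and HSC array. The RNA of the group labelled CMP went against the FCR+ and CD34low of its sort label. Fcgr3 averaged 9.51 ± 0.35 (SD, n = 4) in GMP, against 5.47 ± 0.23 (n = 4) with 2 arrays at the floor in CMP. Cd34 averaged 8.94 ± 0.14 in GMP and 9.57 ± 0.26 in CMP. These genes speak to the gate in the label and not to the name CMP. In bulk samples such as these, fewer cells of a type and less RNA per cell cannot be told apart.

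**Figure D1:**
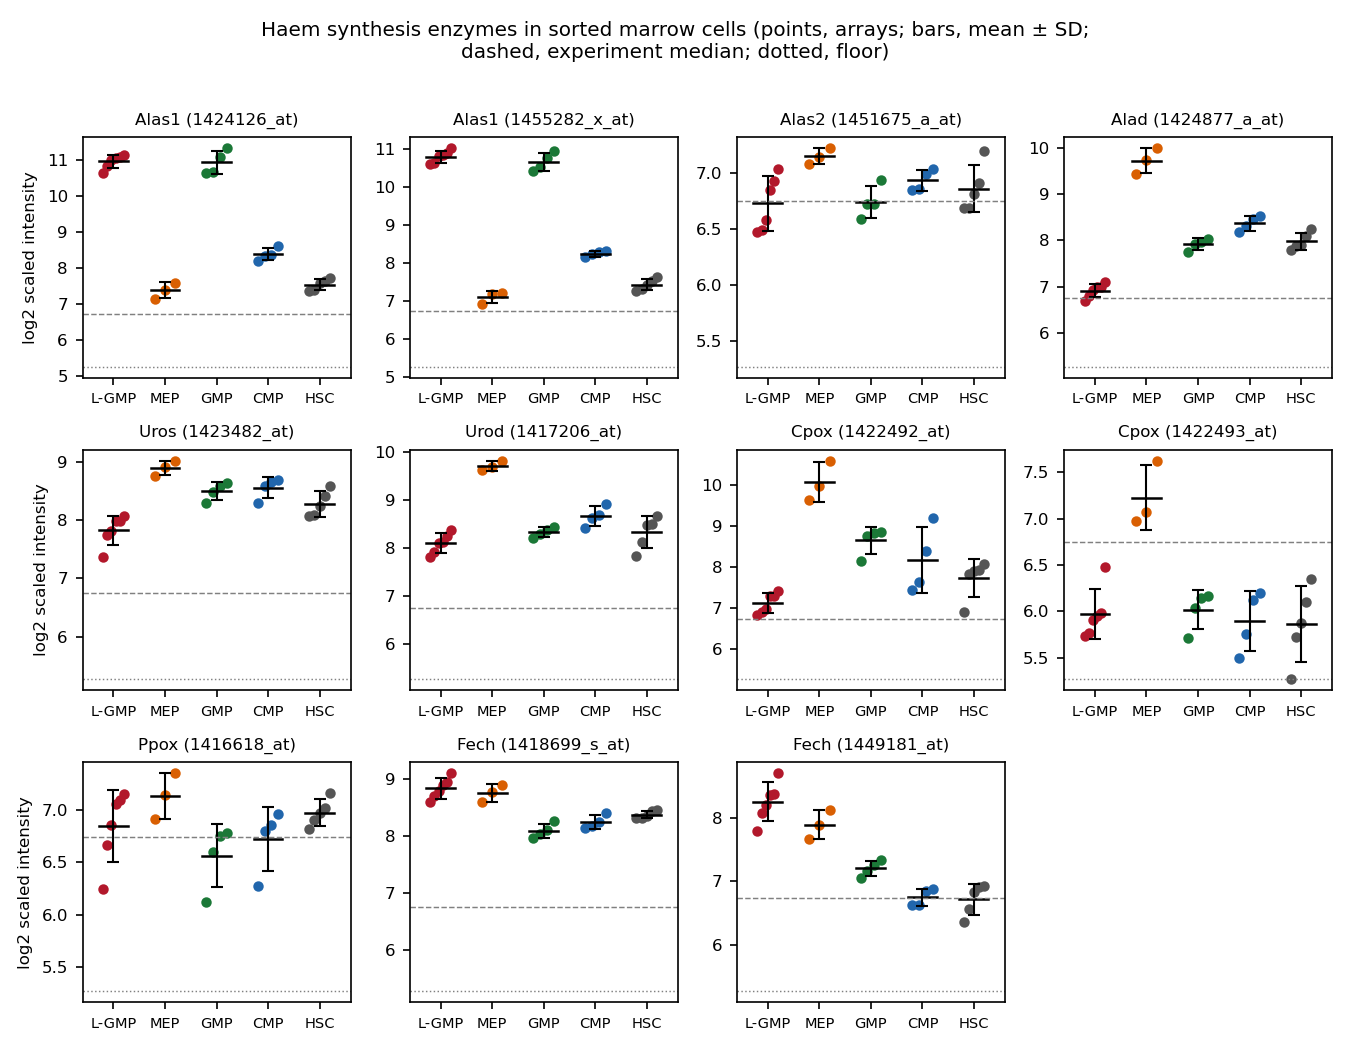
Log2 scaled intensity of the 11 tested probe sets in the sorted experiment, each point 1 array, bars the mean and SD of the group, with the experiment median dashed and the floor dotted. L-GMP and GMP arrays stand above the rest for both Alas1 probe sets, MEP arrays stand above the rest for Alad, Urod and Cpox, and L-GMP and MEP arrays stand above the rest for Fech.

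Alas1, the first enzyme of the pathway outside erythroid cells, was high in both granulocyte-macrophage groups and low in MEP. Probe set 1424126_at read between 1602 and 2258 (median 2118) on the L-GMP arrays, against 1652, 1620.2, 2178 and 2592 on the GMP arrays. It read 143, 171 and 194 on the MEP arrays. The CMP arrays gave 396, 334, 298 and 328, and the HSC arrays gave 214, 195, 199, 165 and 168. Every L-GMP and GMP array thus lay above every other array, L-GMP and GMP overlapped, and CMP lay between them and the overlapping MEP and HSC arrays. MEP were 11.8-fold lower than GMP (log2 change -3.55 ± 0.16 SE, adjusted p = 6.0e-13) and 2.01-fold lower than CMP (adjusted p = 0.00011). L-GMP did not differ detectably from GMP, with a log2 change of 0.03 (95% interval -0.26 to 0.32), and were 12.0-fold higher than MEP (adjusted p = 4.2e-14). The second Alas1 probe set, 1455282_x_at, gave log2 changes of -3.56 ± 0.13 for MEP against GMP, 3.70 ± 0.12 for L-GMP against MEP and 0.14 ± 0.11 for L-GMP against GMP. On this probe set MEP did not overlap HSC and lay below them (-0.33 ± 0.13, adjusted p = 0.0517). That change was not called, but was in 7 of 30 alternatives. In GMP against CMP Alas1 was 5.84-fold and 5.35-fold higher on its 2 probe sets, and in CMP against HSC the log2 change was 0.85 ± 0.14 and 0.81 ± 0.11.

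Alas2, the erythroid form of the first enzyme, varied little. It read between 88.7 and 131 (median 105) on the L-GMP arrays and 135, 141 and 149 on the MEP arrays. The GMP arrays gave 105, 95.9, 105 and 122, the CMP arrays 116, 127, 131 and 115, and the HSC arrays 103, 119.7, 146, 112 and 103. All values stood within a narrow band around the experiment median, with MEP highest and no neighbours in the order of the 5 groups differing beyond their spread. MEP were 1.33-fold higher than GMP (log2 change 0.41 ± 0.14, adjusted p = 0.0399) with no overlap. That call was lost in 9 of 31 alternatives (adjusted p up to 0.110), among them the fit without GMP replicate 1, 2 or 3 (0.0703, 0.109 and 0.0734) or without MEP replicate 1, 2 or 3 (0.0577, 0.0909 and 0.110). L-GMP were lower than MEP by a log2 change of -0.42 ± 0.13 (adjusted p = 0.0129), and this was lost without MEP replicate 3 (0.0543) and with the 3'/5' ratio as a covariate (0.0628).

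Alad, which joins aminolaevulinic acid into the pyrrole porphobilinogen, was highest in MEP and lowest in L-GMP. It read between 104 and 136 (median 124) on the L-GMP arrays and 852, 698 and 1016 on the MEP arrays. The GMP arrays gave 214, 250.3, 263 and 243, the CMP arrays 371, 319, 288 and 351, and the HSC arrays 302, 239.7, 222, 236 and 272. MEP lay above and L-GMP below every other array, while GMP and HSC overlapped. MEP were 3.49-fold higher than GMP (log2 change 1.81 ± 0.14, adjusted p = 1.3e-09) and 2.56-fold higher than CMP (adjusted p = 2.7e-07). L-GMP were 2.0-fold lower than GMP (log2 change -1.0 ± 0.12, adjusted p = 8.4e-07) and 7.01-fold lower than MEP (adjusted p = 1.0e-13). CMP were higher than HSC (0.39 ± 0.12, adjusted p = 0.0353) and GMP were lower than CMP (-0.45 ± 0.13, adjusted p = 0.0162). The first of these was lost without CMP replicate 1, 2 or 4 or HSC replicate 2, 3 or 4 (adjusted p from 0.0560 to 0.122), and the second without CMP replicate 1 (0.0597) or GMP replicate 1 (0.0585).

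Uros, which closes the ring as uroporphyrinogen, and Urod, which removes carboxyl groups from it, ran from MEP down to L-GMP with smaller steps. Uros read between 165 and 267 (median 238) on the L-GMP arrays, 483, 432 and 513 on the MEP arrays and 313, 385, 397 and 358 on the GMP arrays. CMP gave 414, 312, 401 and 385, and HSC gave 340.0, 301, 268, 272 and 382. MEP lay above and L-GMP below all other arrays, and GMP, CMP and HSC overlapped. L-GMP were 1.6-fold lower than GMP (log2 change -0.68 ± 0.13, adjusted p = 0.00043) and lower than HSC (-0.45 ± 0.12, adjusted p = 0.0045), the next group in the order. MEP did not pass the test against GMP (0.39 ± 0.16, adjusted p = 0.0709), although they did under quantile normalization (0.0444) and without L-GMP replicate 6 (0.0357).

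Urod read between 224 and 334 (median 279) on the L-GMP arrays, 909, 824 and 796 on the MEP arrays and 297, 331, 349.6 and 315 on the GMP arrays. The CMP arrays gave 487, 417, 345 and 399, and the HSC arrays 407, 366, 281, 230.2 and 359.7. MEP stood above all other arrays by a wide margin, and L-GMP overlapped GMP and HSC. MEP were 2.61-fold higher than GMP (log2 change 1.38 ± 0.17, adjusted p = 1.3e-06) and 2.06-fold higher than CMP (adjusted p = 0.00010). L-GMP against GMP gave -0.23 (95% interval -0.52 to 0.07, adjusted p = 0.238), and L-GMP were 3.06-fold lower than MEP (adjusted p = 2.1e-08).

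Cpox, which oxidises coproporphyrinogen, varied most within groups of the tested probe sets (pooled SD 0.48 on the log2 scale). Probe set 1422492_at read between 115 and 172 (median 142) on the L-GMP arrays, 1007, 800.5 and 1560.0 on the MEP arrays and 284, 468, 433 and 460.0 on the GMP arrays. The CMP arrays gave 175, 199, 340.0 and 589.9, and the HSC arrays 247, 229, 120.3, 269 and 239. MEP lay above all others, and L-GMP overlapped HSC but not GMP or CMP. MEP were 2.67-fold higher than GMP (log2 change 1.42 ± 0.34, adjusted p = 0.0032), and L-GMP were 2.89-fold lower than GMP (-1.53 ± 0.29, adjusted p = 0.00030) and 7.72-fold lower than MEP (adjusted p = 1.0e-07). GMP were higher than HSC (0.92 ± 0.30, adjusted p = 0.0173), which was lost without HSC replicate 3 (0.0564) or GMP replicate 4 (0.0501). Within CMP, the array with the highest Cpox, replicate 4, also had the highest erythroid list mean, 8.41, where the other CMP arrays had 7.70, 7.24 and 7.0. The MEP array with the highest Cpox and Alad, replicate 3, had the highest erythroid list mean of its group, 10.3, and the largest scaling factor of all arrays, 1.12. The part of these in the levels was not tested.

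The second Cpox probe set, 1422493_at, read between 53.2 and 89.4 (median 60.8) on the L-GMP arrays and 134, 126 and 198 on the MEP arrays, against 52.4, 65.7, 72.0 and 70.9 on the GMP arrays. MEP lay above all L-GMP and GMP arrays, which is a description, since the MEP arrays alone brought this probe set past the filter. For L-GMP against GMP the log2 change was -0.05 (95% interval -0.45 to 0.36, adjusted p = 0.889), so the 2 Cpox probe sets disagreed on that comparison. All L-GMP and GMP values of this probe set lay below the experiment median.

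Ppox, the last oxidase before iron insertion, had no neighbours in its order of groups that differed beyond their spread. Probe set 1416618_at read between 75.7 and 142 (median 124) on the L-GMP arrays, 141, 163 and 121 on the MEP arrays and 69.8, 110.2, 108 and 97.0 on the GMP arrays. CMP gave 77.2, 111, 125 and 116, and HSC gave 143, 129.7, 119, 113 and 125. MEP and GMP did not overlap, while L-GMP overlapped every other group. MEP against GMP gave a log2 change of 0.57 ± 0.20 (adjusted p = 0.0439), a call that was lost in 12 of 31 alternatives, with 0.0577 when the replicate number was a block. The log2 change was 0.42 without GMP replicate 1 (adjusted p = 0.141) and 0.46 without MEP replicate 2 (0.181). Leaving out MEP replicate 1, GMP replicate 4, CMP replicate 2 or HSC replicate 2 or 5 also ended the call (0.0906, 0.0667, 0.0514, 0.0523 and 0.0519). The second Ppox probe set, 1448065_at, lay between 31.0 and 66.2 on all arrays.

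Fech, which inserts ferrous iron into protoporphyrin, was the only enzyme of the 8 called higher in L-GMP than in GMP. Probe set 1418699_s_at read between 386 and 551 (median 459.8) on the L-GMP arrays, 386, 438 and 478 on the MEP arrays and 249, 264, 275 and 306 on the GMP arrays. The CMP arrays gave 340.1, 305, 291 and 281, and the HSC arrays 348, 349.9, 319.6, 319 and 326. L-GMP and MEP overlapped each other and lay above all other arrays. L-GMP were 1.68-fold higher than GMP (log2 change 0.75 ± 0.10, adjusted p = 4.9e-06), and MEP were 1.59-fold higher than GMP (0.67 ± 0.12, adjusted p = 0.00013). MEP were also higher than HSC (0.38 ± 0.11, adjusted p = 0.0114), which was lost without MEP replicate 3 (0.0846). The change of L-GMP against MEP was 0.08 (95% interval -0.14 to 0.31).

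Probe set 1449181_at of Fech read between 222 and 417 (median 312) on the L-GMP arrays, 237, 203 and 279 on the MEP arrays and 144, 154, 161 and 133 on the GMP arrays. CMP gave 99.4, 98.8, 115 and 118, and HSC gave 120.2, 95.1, 82.7, 114 and 121. L-GMP and MEP again lay above all others and overlapped. L-GMP were 2.06-fold higher than GMP (log2 change 1.05 ± 0.15, adjusted p = 1.1e-05), and MEP were 1.61-fold higher than GMP (0.68 ± 0.17, adjusted p = 0.0049). Against MEP, L-GMP gave 0.36 (95% interval 0.03 to 0.69, adjusted p = 0.0744), which passed without L-GMP replicate 2 (0.0186) or MEP replicate 3 (0.0431). In GMP against HSC the 2 Fech probe sets were called in opposite directions, -0.29 ± 0.10 (adjusted p = 0.0295) for 1418699_s_at and 0.49 ± 0.15 (adjusted p = 0.0142) for 1449181_at. The lower call was lost without HSC replicate 1 or 2 or GMP replicate 1, 2 or 3 (adjusted p from 0.0534 to 0.0926) and with the replicate block (0.0510). Of the untested Fech probe sets, 1418698_a_at read between 44.7 and 63.7 in L-GMP and 57.1, 46.1 and 73.0 in MEP, against 22.5, 17.6, 44.5 and 44.6 in GMP, and lay at the floor on every CMP and HSC array. With no filter on low values it was higher in L-GMP than in GMP (0.41 ± 0.11, adjusted p = 0.0106). The last, 1427696_at, lay between 12.7 and 50.6 on all arrays.

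**Figure D2:**
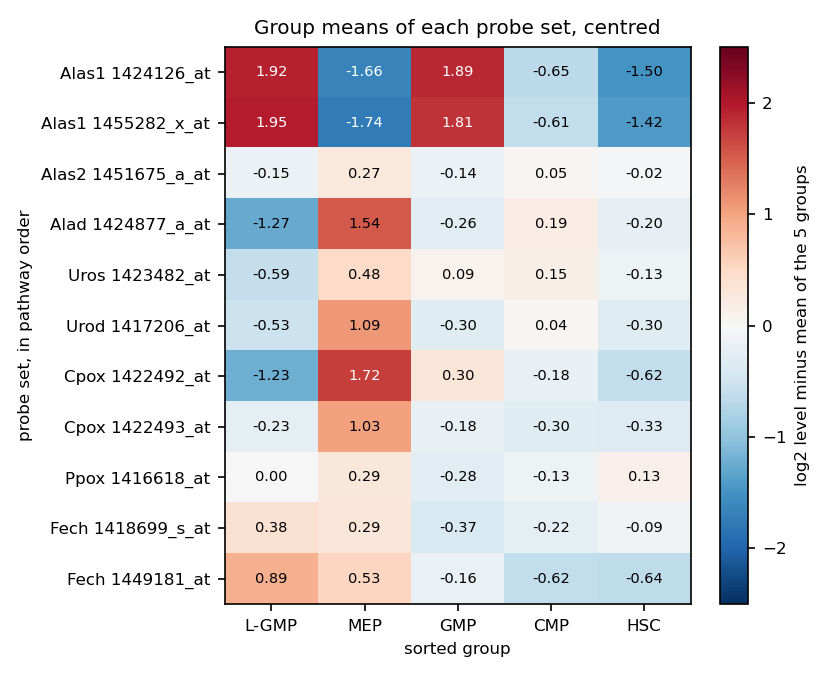
Group means of the 11 tested probe sets in pathway order, each as the log2 level minus the mean of the 5 sorted groups (red above, blue below). L-GMP stand at 1.92 and 1.95 for Alas1, at -1.27 for Alad and at 0.38 and 0.89 for Fech, and MEP stand at -1.66 and -1.74 for Alas1 and above 0 for all other probe sets.

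In MEP, Alas1 was lower and Alas2, Alad, Urod, Cpox, Ppox and Fech were higher than in GMP, while Uros did not pass the test. Of the 11 tested probe sets, 10 were called, where 26.3% of all 12233 probe sets tested were. Of these 8 were higher (11.1% of all) and 2, both of Alas1, were lower (15.2%), and all 11 did not overlap, where 32.1% of all did not. By gene, 6 enzymes were higher and 1 was lower, but the calls of Alas2 and Ppox were lost in 9 and 12 of 31 alternatives. The median log2 change of the 11 was 0.67, beside 0.04 over all probe sets tested. These counts include Cpox 1422493_at, which passed the filter through MEP alone; without it 9 of 10 were called, 7 higher and 2 lower, with a median of 0.62. The count was 8 of 11 without replicate 1 of HSC, CMP and GMP together, beside 24.5% of all. It was also 8 of 11 with the 3'/5' ratio as a covariate, beside 2851 of all 12233. Alas2 and Ppox were not called in either. With no filter on low values, 9 of the 14 were called, beside 16.3% of all 20380 probe sets in that fit. Over the same samples 7 of 8 erythroid marker genes were higher in MEP and 6 of 6 granulocyte-macrophage marker genes were lower, and the part of cell type in the enzyme values cannot be told apart from the groups. In MEP against CMP, 8 of 11 probe sets were called (15.9% of all), 6 higher (5.61%) and 2 lower (10.3%), and 10 did not overlap (24.6%). In MEP against HSC, 7 were called (32.7% of all), 7 higher (15.8%) and 0 lower (16.9%), and 8 did not overlap (32%). Without Cpox 1422493_at these became 7 of 10 called, 5 of them higher, for MEP against CMP, and 6 of 10 for MEP against HSC.

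L-GMP were lower than GMP in Alad, Uros and 1 of the 2 tested Cpox probe sets (1422492_at) and higher in Fech, and Alas1 was not called. Against GMP, 5 of 11 probe sets were called (32.8% of all), 2 higher (14.3%) and 3 lower (18.5%), and 5 did not overlap (25.4%). The median log2 change was -0.01, beside 0.00 over all. No erythroid marker gene of 8 was called in this comparison, and 4 of 4 leukaemic marker genes, among them Hoxa9 and Meis1, were higher. Of 6 granulocyte-macrophage genes 3 were lower, of 5 macrophage and monocyte genes 2 were higher and 1 was lower, and of 4 mast cell, basophil and eosinophil genes 2 were higher and 1 was lower. The part of such cells in the enzyme values was not tested. A list of 10 immediate early genes averaged between 6.58 and 7.79 on the L-GMP arrays, against 7.65 on GMP replicate 1, and 9.73 to 10.1 on the rest of the GMP arrays. GMP replicate 1 read 214 for Alad, 313 for Uros, 284 for Cpox 1422492_at and 249 and 144 for Fech. The part of the immediate early genes in the differences was not tested. Without replicate 1 of GMP, CMP and HSC together, 5 probe sets were called, beside 30.1% of all.

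Set against MEP, L-GMP differed at the first step and in the middle of the pathway. Of 11 probe sets, 8 were called (44.6% of all), 2 higher, both of Alas1 (21.7%), and 6 lower (23%), and 8 did not overlap (36.5%). Without Cpox 1422493_at, 7 of 10 were called, 2 higher and 5 lower. The changes ran from 3.70 for Alas1 to -2.95 for Cpox, with Fech at 0.08 and 0.36 and Ppox at -0.29 (95% interval -0.68 to 0.10) not called. The immediate early list averaged between 6.58 and 7.79 in L-GMP and between 10.3 and 10.7 in MEP. Of 8 erythroid genes 7 were lower in L-GMP. All 6 granulocyte-macrophage, 5 macrophage and monocyte and 4 mast cell, basophil and eosinophil genes tested were higher. The part of these in the enzyme differences was not tested. In L-GMP against CMP, 8 were called (39.1% of all), 4 higher (17.7%) and 4 lower (21.4%), and 8 did not overlap (30.2%). In L-GMP against HSC, 6 were called (47.3% of all), 4 higher (23.5%) and 2 lower (23.8%), and 6 did not overlap (31.8%). Among normal groups, CMP against HSC gave 3 calls (12.8% of all), 3 higher (7.21%) and 0 lower (5.58%), and 2 did not overlap (16.8%). GMP against HSC gave 5 calls (40.9% of all), 4 higher (22.3%) and 1 lower (18.5%), and 6 did not overlap (35.7%). GMP against CMP gave 3 calls (16.2% of all), 2 higher (8.17%) and 1 lower (8.06%), and 4 did not overlap (23.4%). In those last 3 comparisons, replicate 1 of CMP, GMP and HSC stood below the rest of its group in immediate early genes (7.49, 7.65 and 9.17, where the other arrays of these groups had at least 9.73). Without these 3 arrays the calls were 2 for CMP against HSC (9.39% of all), 4 for GMP against HSC (39.4%) and 2 for GMP against CMP (11.7%), with Alad (adjusted p = 0.0593 and 0.133) and Fech 1418699_s_at (0.139) no longer called.

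**Figure D3:**
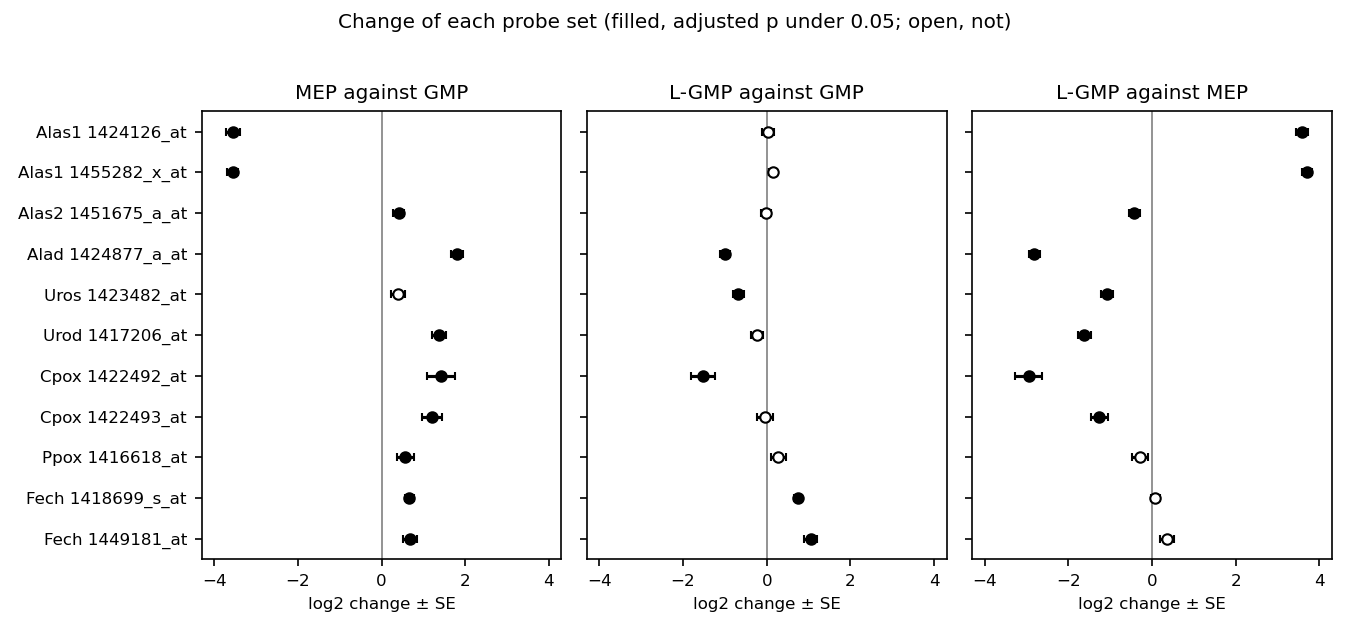
Log2 change and SE of the 11 tested probe sets in pathway order for MEP against GMP, L-GMP against GMP and L-GMP against MEP, filled where the adjusted p was under 0.05. Alas1 lies at -3.55 and -3.56 for MEP against GMP and near 0 for L-GMP against GMP, where Alad, Uros and Cpox probe set 1422492_at lie below 0 and Fech above.

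Across the 22 sorted arrays, which share their groups and scaling, the levels of the middle enzymes went together. Of these, Alad ran most clearly opposite to Alas1. Alad had a Pearson r of 0.902 with Urod, 0.887 with Uros and 0.855 with Cpox 1422492_at, and of -0.710 with Alas1 1424126_at. With each group's mean removed these were 0.545, 0.657, 0.347 and 0.314, so Alad and Alas1 ran opposite ways between groups and not within them. Alas1 1424126_at had an r across arrays of -0.555 with Urod and -0.521 with Uros. With Cpox it was weaker, -0.396 for 1422492_at and -0.286 for 1422493_at. Urod and Cpox 1422492_at had an r of 0.748 across arrays and -0.138 within groups. The 2 Alas1 probe sets had an r of 0.996 across arrays and 0.737 within groups, the 2 tested Cpox probe sets 0.774 and 0.613, and the 2 tested Fech probe sets 0.776 and 0.307. The genes with patterns most like Alas1 over these arrays were Lta4h (r of 0.986), Hvcn1 (0.983) and Fcgr3 (0.981), of which Fcgr3 encodes an Fc receptor of the kind used in the sort. Those most like Alad were Gclm (0.97), Mthfd1 (0.962) and Rangrf (0.961). For Uros they were Rpl14 (0.927), 2310061I04Rik (0.919) and Trim37 (0.911), and for Urod Gstm5 (0.951), Mapk9 (0.946) and Thumpd3 (0.939). For Cpox they were Pitrm1, Pja1 and Sppl2b (0.935, 0.935 and 0.934), and for Fech Dnah8 (0.900), C1qtnf12 (0.876) and Tpp1 (0.858). For Alas2 they were U2af1, Rassf1 and Egr3 (0.787, 0.762 and 0.758), and for Ppox Zfp740, Rasgrf2 and Tspan9 (0.744, 0.736 and 0.724).

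Genes around the pathway were read by the tested probe set of highest mean, over 8431 genes of which 27.1% were called in MEP against GMP (11.7% higher, 15.4% lower). Of 12 transport genes, 5 were higher and 1 was lower in MEP, with a median log2 change of 0.28 beside 0.05 over all genes. The haem-binding protein gene Hebp1 was at 2.27 ± 0.34 (2 of 4 GMP arrays at the floor), the porphyrin exporter Abcg2 at 1.12 ± 0.17 and Pgrmc1, which binds haem, at 0.84 ± 0.27, while the mitochondrial iron importer Slc25a37 was at -0.88 ± 0.27. Of 12 iron genes, 8 were higher and 1 was lower (median 0.71), led by the transferrin receptor Tfr2 (2.62 ± 0.17), the iron exporter Slc40a1 (1.68 ± 0.37), the iron reductase Steap3 (1.41 ± 0.25) and Isca1 of iron-sulphur cluster assembly (1.38 ± 0.24). Of 8 regulators, 5 were higher and none was lower (median 1.46). The erythroid factor Klf1 and the GATA1 cofactor Zfpm1, at the floor on all 4 GMP arrays, were at least 36.5-fold and 6.96-fold higher, and Gata1 and Tal1 were at 3.43 ± 0.22 and 2.39 ± 0.16.

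Of 4 haem breakdown genes, biliverdin reductase Blvrb was at least 42.8-fold higher in MEP than in GMP, where all 4 arrays were at the floor, and haem oxygenase Hmox2 was lower (-0.25 ± 0.09, adjusted p = 0.0455). The Hmox2 call was lost in 18 of 31 alternatives. Of 6 haem-binding proteins, Cat (0.40 ± 0.12) and Cyb5a (0.30 ± 0.10) were higher and myeloperoxidase, Mpo, was lower (-3.11 ± 0.33). The count of 3 became 5 without GMP replicate 1 and 1 without MEP replicate 2. Of the adult globins of mature red cells, Hba-a1 was read and averaged 6.95 ± 0.12 in MEP against 7.36 ± 0.25 in GMP (log2 level), which was not called (adjusted p = 0.0650).

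In L-GMP against GMP these genes gave a mixed picture, where 33.2% of all 8431 genes were (15.1% higher, 18.1% lower). Of 12 transport genes, 1 was higher (Slc25a37, 1.0 ± 0.23) and 3 were lower, Abcg2 (-1.78 ± 0.14, with 5 of 6 L-GMP arrays at the floor), Abcb10 (-0.44 ± 0.10) and Slc25a28 (-0.33 ± 0.11). Of 12 iron genes, Slc40a1 was higher (1.03 ± 0.31) and 4 were lower, among them Tfr2 (-2.27 ± 0.15, with 4 of 6 L-GMP arrays at the floor), Steap3 (-0.81 ± 0.21) and the transferrin receptor Tfrc (-0.56 ± 0.14). Blvrb was at least 3.21-fold higher in L-GMP, a call that was lost with the floor at the 50th percentile. The phagocyte oxidase subunit Cyba was higher (1.71 ± 0.12), and Mpo was lower (-0.73 ± 0.28, adjusted p = 0.0489). The Mpo call was lost in 23 of 31 alternatives. Of 8 regulators, Tal1 was at least 4.56-fold lower with all 6 L-GMP arrays at the floor, and Nfe2 was higher (0.48 ± 0.16, adjusted p = 0.0259). The Nfe2 call was lost in 4 of 31 alternatives. All of these lists were chosen with results of these data known, and their counts are descriptions.

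**Figure D4:**
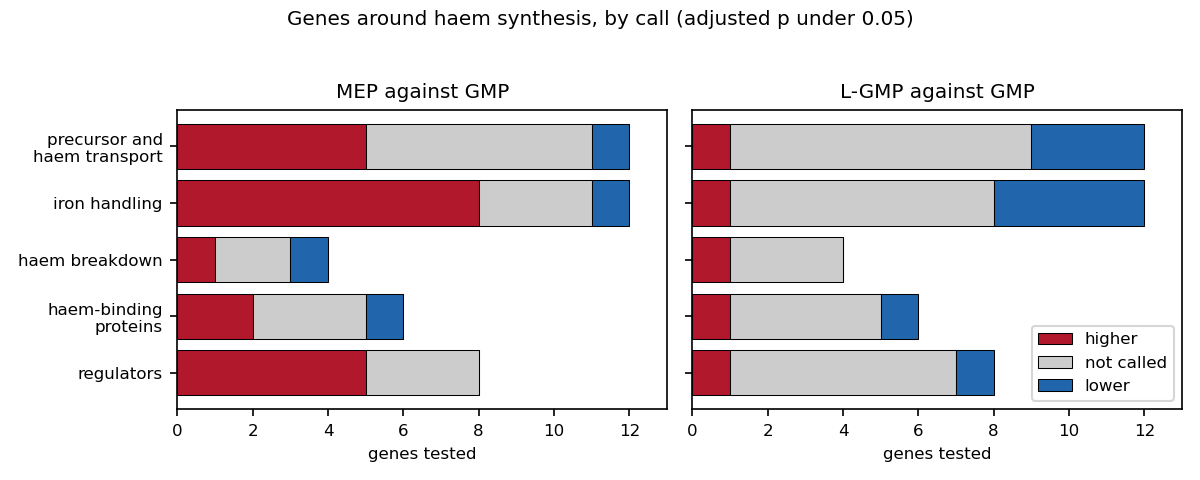
Number of genes in each list called higher (red), called lower (blue) or not called (grey) at an adjusted p under 0.05, for MEP against GMP and L-GMP against GMP. In MEP 8 of 12 iron genes and 5 of 8 regulators were higher, and in L-GMP 4 of 12 iron genes and 3 of 12 transport genes were lower.

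In transduced GMP, no haem synthesis enzyme passed the test for MLL-AF9 against GFP. The 8 probe sets tested there, for 6 enzymes, gave 0 calls by limma, and 1 of 10523 probe sets was called in all (0.0095%). At an unadjusted p under 0.05 there was 1 of the 8, where 9.61% of all probe sets were, and the groups overlapped for all 8, where 17.2% of all probe sets did not overlap. The labels state no pairing, but samples of the same replicate number went together (r of deviations 0.42 to 0.64 in 3 of 3 pairs). The largest r between unlike numbers was 0.52. With the replicate number as a block, 143 of the 10523 were called and still none of the 8.

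Alas1 probe set 1424126_at read 6590.2, 4019 and 4274 on the MLL-AF9 arrays, against 7561, 6119 and 6066 on the GFP arrays. Its log2 change was -0.44 ± 0.21 (95% interval -0.95 to 0.07, adjusted p = 0.549), and that of 1455282_x_at was -0.45 ± 0.18 (-0.89 to -0.02, adjusted p = 0.516). In both, MLL-AF9 replicates 2 and 3 lay below all GFP arrays and replicate 1 lay among them. Within the 3 pairs of the same replicate number, MLL-AF9 was lower in 3 of 3 for both Alas1 probe sets. The log2 differences ran from -0.61 to -0.20 and from -0.58 to -0.25, and with the replicate block the adjusted p was 0.156 and 0.129. Alad read 951, 829 and 669.9 with MLL-AF9 and 537, 703 and 653 with GFP, a log2 change of 0.37 (-0.05 to 0.78, adjusted p = 0.543), and was higher in 3 of 3 pairs (0.310 with the block). Cpox probe set 1422492_at varied most, with 562, 1061 and 926 under MLL-AF9 and 547, 707 and 1101 under GFP (log2 change 0.12, interval -0.66 to 0.91). Replicate 1 was the lowest of its group for Cpox in both groups.

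Urod read 1318, 1084 and 1060.1 with MLL-AF9 and 1557, 1223 and 1189 with GFP (-0.19, interval -0.57 to 0.18). It was lower in 3 of 3 pairs (adjusted p = 0.356 with the block). Uros gave a log2 change of 0.03 (-0.30 to 0.36). Fech gave -0.06 (-0.34 to 0.21) for 1418699_s_at and -0.31 (-0.74 to 0.12) for 1449181_at, where the leukaemic L-GMP had 0.75 and 1.05 against sorted GMP in the other experiment. Fech 1449181_at was lower with MLL-AF9 in 3 of 3 pairs (adjusted p = 0.252 with the block). The difference between the 2 experiments was not tested. The other 6 probe sets did not reach the median on 3 arrays: Alas2, Cpox 1422493_at, both of Ppox, and Fech 1418698_a_at and 1427696_at. Alas2 read 47.1, 94.8 and 101 with MLL-AF9 and 119, 98.3 and 102 with GFP, near the floor of 78.0.

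None of the 11 transport, 12 iron, 4 breakdown, 6 haem-binding and 5 regulator genes tested there was called by limma, where 1 of 7233 genes was (0.0138%). With the replicate block, under which 143 of all 10523 probe sets were called, 1 was. Haem oxygenase Hmox1, the inducible first enzyme of haem breakdown, was lower with MLL-AF9 (log2 change -1.40 ± 0.18, adjusted p = 0.0318), against 0.432 without the block. The immediate early list averaged between 8.02 and 8.85 with MLL-AF9 and between 8.90 and 9.62 with GFP. A list of 6 macrophage and monocyte genes averaged between 9.72 and 10.5 with MLL-AF9 and between 10.8 and 11.5 with GFP. None of the 5 tested genes of that list was called without the block. The part of either list in the Hmox1 change was not tested.

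**Figure D5:**
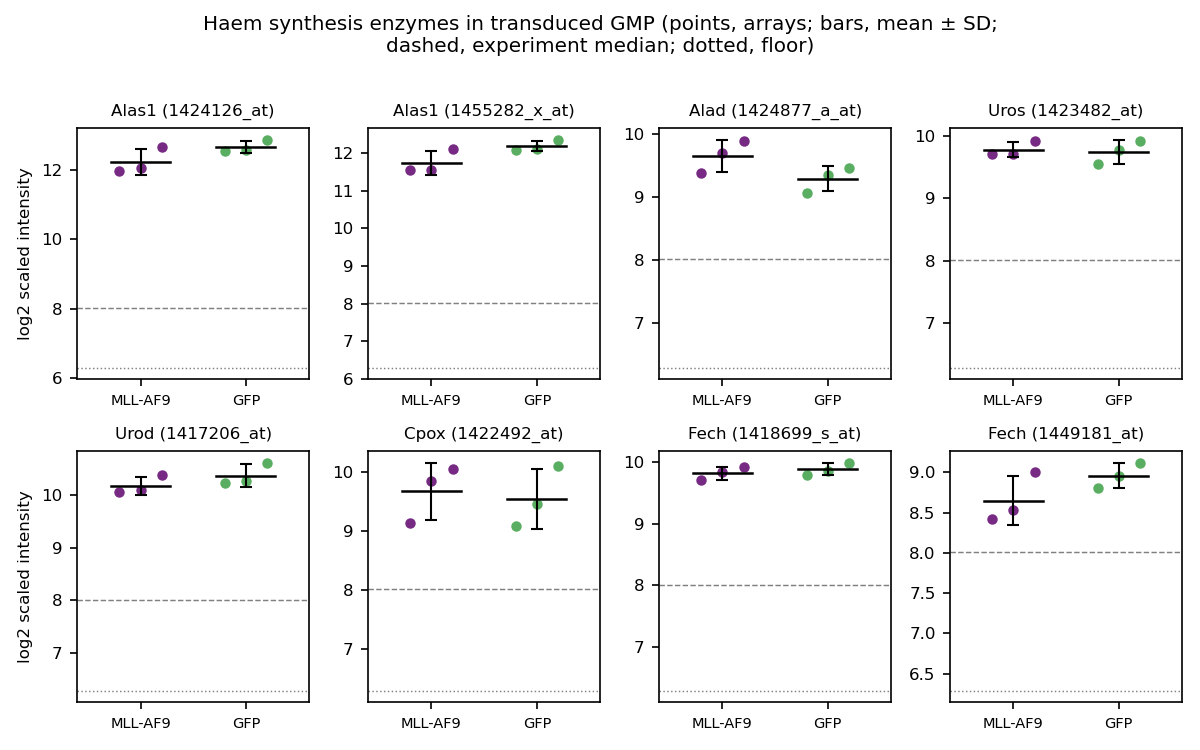
Log2 scaled intensity of the 8 tested probe sets in transduced GMP, each point 1 array, bars the mean and SD, with the experiment median dashed and the floor dotted. The MLL-AF9 and GFP arrays overlap for every probe set, and all lie above the median.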

How the data were processed

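The authors deposited linear intensities, 1 per probe set and array. The submitters' processing notes name MAS5, and the scaling target is not given in the sources used here. Per the labels, RNA of about 10000 sorted cells was amplified. Each array held 187 to 413 values at or below 0, whose origin is not stated. Within each experiment, arrays were scaled to a common mean after trimming 2% at each end (factors 0.923 to 1.12), values under the 25th percentile were set to that floor and log2 was taken. Probe sets above the experiment median on at least 3 arrays that name 1 gene were tested, 12233 in the sorted and 10523 in the transduced experiment. limma 3.58.1 in R 4.3.3 (lmFit, eBayes, two-sided) was fitted to all arrays of an experiment, with 10 contrasts in the sorted one, and p-values were adjusted over all probe sets tested (Benjamini-Hochberg); a call is an adjusted p under 0.05. Scaling removes changes in total RNA per cell. The log2 ratio of 3' to 5' control signal, a measure of RNA length, averaged 2.85 in L-GMP, 3.10 in MEP, 2.92 in GMP, 3.00 in CMP, 3.09 in HSC, 1.47 with MLL-AF9 and 1.51 with GFP. The number of arrays limits the precision. The labels state no pairing. Transduced samples of the same replicate number had an r of deviations of 0.42 to 0.64 in 3 of 3 pairs, and those of unlike numbers had up to 0.52. In the sorted experiment it was over 0.1 in 20 of 37 pairs of the same number. A pairing of the transduced samples was thus read from these data and is not certain. Group and number came from sample titles. All probe sets of the enzymes are named. Of each other list, up to 4 called genes of largest change are named per comparison, and for each enzyme the 3 genes with the most similar pattern (Pearson r over 22 arrays, 1 probe set per gene) were drawn. The enzymes and lists were chosen with earlier results of these data known. Alternatives were no filter, floors at the 10th and 50th percentile, quantile and median scaling, 1 probe set per gene, the 3'/5' ratio as covariate, the replicate block, and leaving out arrays. Counts without the probe set that passed the filter through 1 group alone were added after the data were seen. The fit was tested on simulated data. Promoter sequences are from RefSeq (GRCm38.p6), with windows read for 7 of 8 enzymes and not for Fech.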

Additional observations from a re-analysis of the deposited data

Results flagged for a closer look

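In 44 sets of values, 1 tested probe set in 1 group of 4 to 10 arrays each, 2 held an array far from the rest of its group by Dixon's gap at the 95% level, which chance reaches in about 1 of 20. Both belong to Cpox. HSC replicate 3 read 120.3 on probe set 1422492_at, where the nearest HSC array read 229 (gap over range 0.73). L-GMP replicate 4 read 89.4 on probe set 1422493_at, where the nearest L-GMP array read 63.1 (gap over range 0.73). All L-GMP values of that probe set lay below the experiment median. Without HSC replicate 3, L-GMP were lower than HSC for Cpox 1422492_at (log2 change -0.81, adjusted p = 0.0153), a comparison not called with it (-0.61, adjusted p = 0.0713).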

How the results depend on the processing

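Of 3490 values of single probe sets recomputed under the alternatives, 3420 kept their direction where called and their side of the threshold, 47 calls were lost, 23 were gained and none was reversed; 46 uncalled values changed sign. The lost calls were those of Alas2 and Ppox in MEP against GMP, Alas2 in L-GMP against MEP, Alad in CMP against HSC and GMP against CMP, Cpox in GMP against HSC and Fech 1418699_s_at in GMP against HSC and MEP against HSC. With 1 probe set per gene, MEP against CMP gave 5 calls (8 by probe set) and GMP against HSC gave 3 (5 by probe set), since fewer probe sets of the same enzymes were counted. With one array left out, the counts lay between 8 and 11 for MEP against GMP, 5 and 5 for L-GMP against GMP, 8 and 9 for L-GMP against MEP, and 4 and 6 for GMP against HSC. With the replicate block, which the numbers do not warrant in the sorted experiment, MEP against GMP gave 9 calls of 11, CMP against HSC 2, GMP against HSC 4 and GMP against CMP 4, and the other sorted counts did not change. In the transduced experiment, where a pairing was read from the data and not from the labels, it gave 0 of 8. Of all probe sets there, 143 were called with the block and 1 without it. MLL-AF9 against GFP gave 0 calls under every alternative run. Low signal, near or below the experiment median, limits Alas2, Ppox, Cpox 1422493_at and the untested Fech probe sets, and 3 to 6 arrays a group limit the rest.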
